A study of Caenorhabditis elegans with 2 samples.

Results

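The 9 genes for subunits of the AMP-activated protein kinase (AMPK) of Caenorhabditis elegans, of 19973 protein-coding genes in all, were examined for binding sites of a transcription factor tagged with GFP. The genes were taken by symbol: aak-1 and aak-2 encode the catalytic alpha subunits, aakb-1 and aakb-2 the beta subunits, and aakg-1 to aakg-5 the gamma subunits. Every peak with its summit in the gene body or within 10 kb of it was used, and the peaks shown were chosen by being listed, by their signals and by the E-box, so the values are a description without a test. The assay was ChIP-seq, in which DNA bound to the tagged protein is pulled down and sequenced, on whole L4 larvae in 2 biological replicates of a lone group. Per the labels, the worms were strain OP355, which carries the mutation unc-119(tm4063) and the transgene wgIs355, with males and females pooled. The labels disagree on the tagged protein: the strain and antibody entries give mdl-1, and a free-text entry gives eGFP-ZK337.2. The sources used here do not give the sequence that drives the transgene or the cells that express it, and a whole-animal sample does not show in which cells a site was occupied.

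AMPK is a heterotrimer that senses cellular energy. The alpha subunit is the kinase and is switched on when an upstream kinase, the LKB1 homolog PAR-4, phosphorylates it. The beta subunit is the scaffold, and the gamma subunit binds AMP, ADP and ATP. In C. elegans, aak-2 is known for its part in lifespan, dauer survival and the response to low energy. MDL-1 is a Mad-type basic helix-loop-helix protein that pairs with the Max homolog MXL-1 and binds the E-box CACGTG.

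All 9 genes had at least 1 peak in the list that passed the authors' irreproducible discovery rate (IDR) comparison, where 52.0% of all protein-coding genes did. In all, 29 of the 4293 IDR peaks lay in or within 10 kb of these genes. The signal of these 29, the peak caller's own value on a scale that the sources used here do not give, ran from 46.2 to 976 with a median of 92.0, against a median of 75.0 over all IDR peaks. The 2 highest were an intergenic peak upstream of aakg-1, with a signal of 976, and a peak in the first intron of aak-2, with 613. Of the 29 peaks, 10 (34.5%) had CACGTG no more than 100 bp from the summit, against 18.4% of all IDR peaks, 17.6% of those on X, 18.7% of those on autosomes and 3.28% of windows centred 400 bp from an IDR summit. The E-box peaks belonged to 6 genes: aak-2, aakb-1, aakg-1, aakg-2, aakg-3 and aakg-4. A peak with the E-box was in reach of 14.5% of all protein-coding genes, 18.9% of those on X and 13.8% of those on autosomes. Peak lists hold no read counts, so the depth behind each signal is unknown.

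The 4 peaks with a signal of at least 200, a level set after the values were seen, were shown in full because each carried the E-box; 8.55% of IDR peaks reach that signal, and 40.3% of those that do carry CACGTG. The 201 bases centred on each summit are given 5′ to 3′ on the strand of the gene (RefSeq sequence, ce11). Capitals mark the E-box CACGTG, the related hexamer CACGCG and the repeat GAGAGA, each searched on both strands, so that GAGAGA on the other strand reads TCTCTC.
aakg-1 upstream (chrIII:12583586-12583786, minus strand): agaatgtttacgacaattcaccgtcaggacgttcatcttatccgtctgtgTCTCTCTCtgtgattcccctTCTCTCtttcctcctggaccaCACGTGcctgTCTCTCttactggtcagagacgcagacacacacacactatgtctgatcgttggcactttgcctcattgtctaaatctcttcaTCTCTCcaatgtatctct
aak-2 first intron (chrX:16796920-16797120, plus strand): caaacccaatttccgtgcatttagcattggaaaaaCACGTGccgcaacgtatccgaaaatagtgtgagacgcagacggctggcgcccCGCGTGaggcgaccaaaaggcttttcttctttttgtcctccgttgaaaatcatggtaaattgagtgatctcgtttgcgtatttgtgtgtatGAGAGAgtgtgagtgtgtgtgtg
aakg-1 intron 5 (chrIII:12568346-12568546, minus strand): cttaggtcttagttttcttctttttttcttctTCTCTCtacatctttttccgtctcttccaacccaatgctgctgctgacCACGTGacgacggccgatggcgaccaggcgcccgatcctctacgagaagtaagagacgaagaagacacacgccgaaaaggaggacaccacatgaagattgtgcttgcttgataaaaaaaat
aakg-3 upstream (chrX:2971561-2971761, plus strand): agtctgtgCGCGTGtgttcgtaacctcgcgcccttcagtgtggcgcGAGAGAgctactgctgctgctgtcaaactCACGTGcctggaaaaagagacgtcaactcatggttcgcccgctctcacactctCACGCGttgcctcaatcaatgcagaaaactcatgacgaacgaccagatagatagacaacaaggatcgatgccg

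In the aakg-1 upstream peak the E-box stood 6.5 bp from the summit, measured from its centre, with 5 matches to GAGAGA on the other strand, 2 of which overlap. In the aak-2 window the E-box stood 62.5 bp upstream of the summit, with 1 CACGCG between them. The aakg-1 intron 5 E-box was 17.5 bp from the summit, and that of aakg-3 was 22.5 bp from it, with 2 CACGCG in the same window. All 4 windows held GAGAGA, a repeat found as near the summit in 17 of the 29 peaks (58.6%) and in 44.0% of all IDR peaks. CACGCG lay in 3 of the 29 and in 11.9% of all IDR peaks.

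The other 6 E-boxes sat in weaker peaks, with signals from 51.4 to 142. They are shown with 24 bases to either side, on the strand of the gene, with CACGTG in capitals.
aakg-1 intron 8 (chrIII:12556263-12556316, minus strand): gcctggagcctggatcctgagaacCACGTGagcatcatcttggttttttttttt
aakg-2 upstream (chrX:16871453-16871506, minus strand): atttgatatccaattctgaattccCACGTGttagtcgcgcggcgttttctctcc
aakb-1 upstream (chrX:13748190-13748243, plus strand): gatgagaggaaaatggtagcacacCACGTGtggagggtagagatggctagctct
aak-2 downstream (chrX:16813294-16813347, plus strand): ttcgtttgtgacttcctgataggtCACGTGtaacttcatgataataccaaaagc
aakg-4 upstream (chrX:2321921-2321974, minus strand): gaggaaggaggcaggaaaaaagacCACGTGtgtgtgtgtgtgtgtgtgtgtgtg
aakg-1 intron 5, further in (chrIII:12565842-12565895, minus strand): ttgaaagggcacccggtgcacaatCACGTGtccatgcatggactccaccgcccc

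Each of the 10 windows held CACGTG once. Its centre lay 6.5 to 62.5 bp from the summit, with a median of 22 bp, and within 20 bp in 4 of the 10 peaks.

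The 3 peaks in the members' own promoter windows carried no CACGTG. A promoter window ran from 1000 bp upstream to 200 bp downstream of the annotated start. Of all IDR peaks, 1844 lay in a protein-coding promoter window, and 303 of those carried CACGTG, so most promoter peaks lacked it. The 101 bases around the summits of the 3 promoter peaks are given to set beside the E-box peaks. No letter is in capitals because none of the searched motifs lay in these shorter windows. Within the full 100 bp to either side, the aakg-4 promoter peak had GAGAGA and the other 2 had none of the 3 motifs.
aakg-5 promoter (chrII:9975140-9975240, minus strand): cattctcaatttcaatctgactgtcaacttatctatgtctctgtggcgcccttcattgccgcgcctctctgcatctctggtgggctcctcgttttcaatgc
aakg-4 promoter (chrX:2319773-2319873, minus strand): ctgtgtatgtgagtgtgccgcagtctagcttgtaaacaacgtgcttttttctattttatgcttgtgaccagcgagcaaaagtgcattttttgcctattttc
aakb-2 promoter (chrIII:11236942-11237042, plus strand): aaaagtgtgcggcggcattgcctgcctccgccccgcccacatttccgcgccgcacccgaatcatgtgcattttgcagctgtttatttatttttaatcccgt

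**Figure D1:**
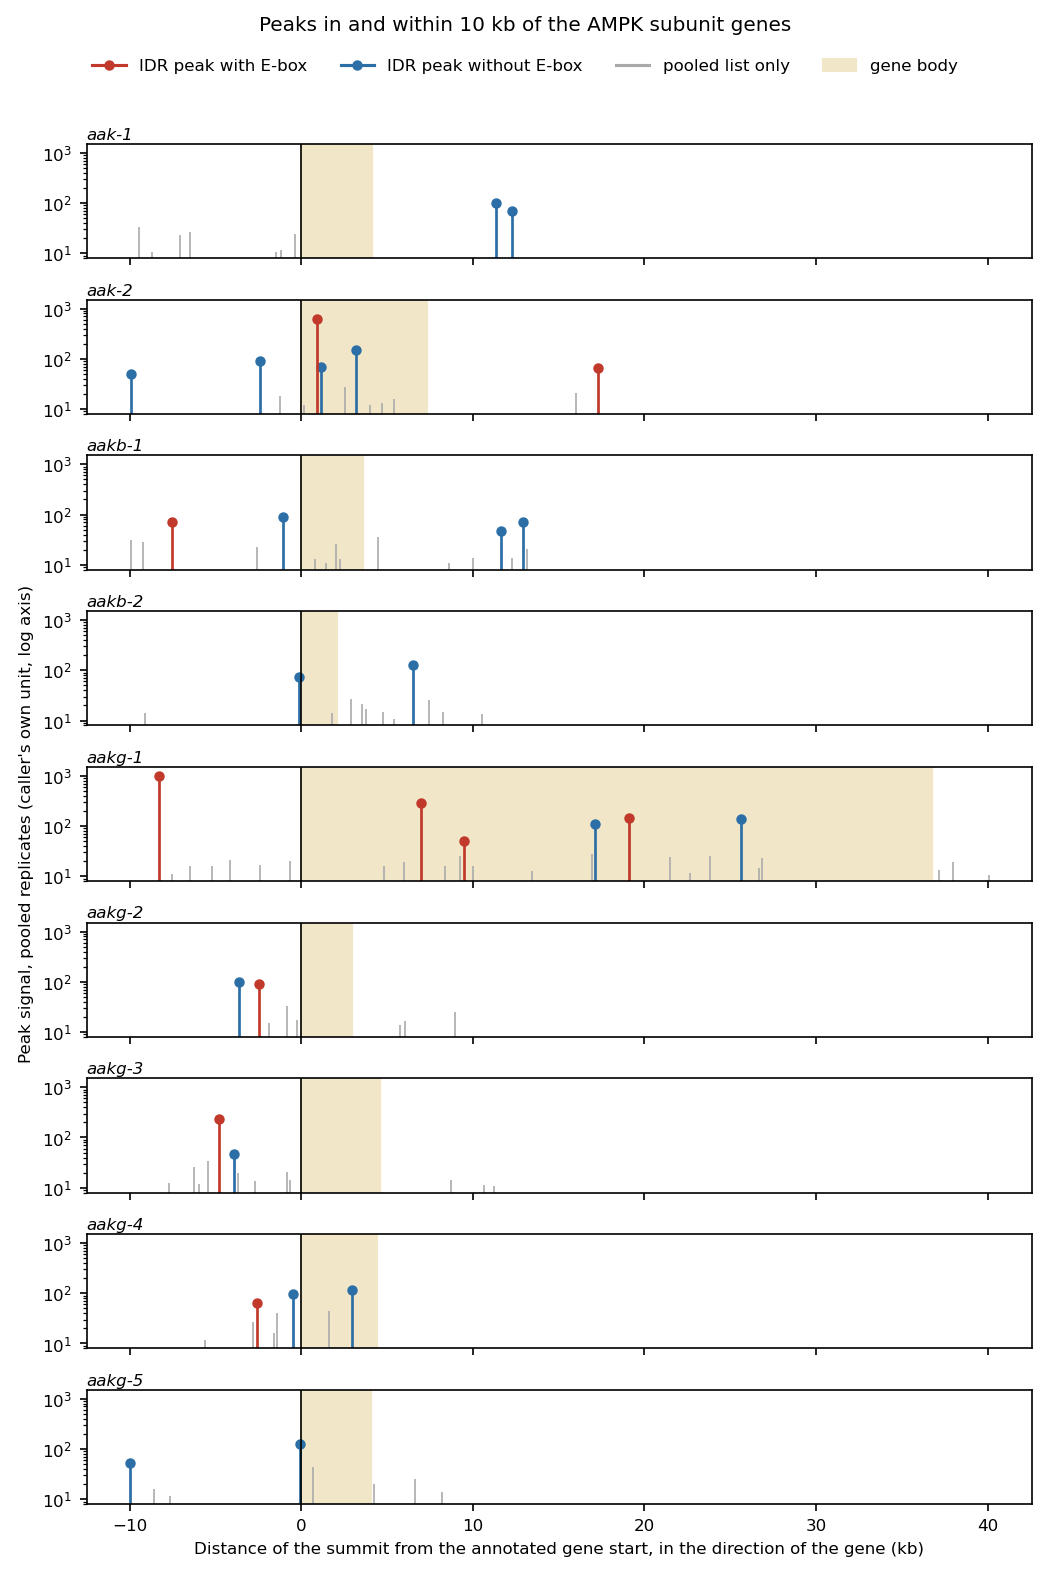
Peak signal called on both replicates together (log axis) against the distance of the summit from the gene start in kb, in the direction of the gene, for each subunit gene. Dots are IDR peaks, red with and blue without CACGTG within 100 bp of the summit, grey lines are peaks of the pooled list alone, and shading is the gene body; the highest dots are at aakg-1 (976) and aak-2 (613).

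The catalytic subunit genes differed from each other. aak-2 (WBGene00020142, chrX:16796087-16803398, plus strand) had 6 IDR peaks, 3 of them inside the gene, and aak-1 (WBGene00019801, chrIII:8756990-8761090, minus strand) had 2, none inside it. The main aak-2 peak (chrX:16796827-16797252) had its summit 933 bp downstream of the annotated start in intron 1 of 9. A non-coding RNA gene on the other strand, T01C8.9, lies 95 bp from the summit, so the printed window runs into that gene. The signal of the peak was 613 in the pooled list, 337 in replicate 1 and 275 in replicate 2, and it ranked 20 among the 4293 IDR peaks, 19 in replicate 1's list and 26 in replicate 2's. The peak was near the top of all 3 lists.

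The same interval was listed again with a summit at 1132 bp and a signal of 69.3 (replicate 1 gave 13.6 and replicate 2 gave 34.2), so this weaker summit shares its stretch of DNA with the main one. The third peak inside aak-2 (chrX:16799102-16799497, signal 147; 70.9 and 74.3 in replicates 1 and 2) lay in the same long intron of the longest transcript. Its summit was 407 bp upstream of the start of a shorter aak-2 transcript, so it lay in front of an alternative start. The annotated start itself had no IDR summit in its promoter window, and the pooled list held 1 peak there, with a signal of 12.3.

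The other 3 peaks near aak-2 were closer to the starts of other genes. A peak with a signal of 91.0 (51.9 and 38.6 in replicates 1 and 2) lay 575 bp upstream of got-1.2, an aspartate aminotransferase gene that is divergent from aak-2, and 2386 bp upstream of aak-2. A peak with a signal of 66.9 (29.4 and 34.7) carried an E-box and lay inside cas-1, which encodes a cyclase-associated protein that binds actin. The weakest of the 6 (replicate 1 gave 30.4 and replicate 2 gave 19.3) lay 256 bp upstream of T01C8.2.

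At aak-1 neither IDR peak was near the gene's start. One (chrIII:8749533-8749928) scored 100.2, against 50.4 in replicate 1's list and 48.6 in replicate 2's, and lay 51 bp inside sma-2, a Smad gene of the body-size TGF-beta pathway. The overlapping gene ugtp-1 spans both summits. The other had a signal of 68.7 (replicate 1 gave 24.8 and replicate 2 gave 43.4), and lay 875 bp upstream of sma-2. The promoter window of aak-1 held 1 pooled peak, with a signal of 24.7 (replicate 1 gave 22.0 and replicate 2 gave 6.27), which is below the lowest IDR signal of 45.6. Both IDR peaks counted for aak-1 thus lay in the promoter window of sma-2, and neither had the E-box.

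The beta subunit genes had 6 IDR peaks between them, with signals from 47.8 to 130.0. aakb-2 (WBGene00012928, chrIII:11237143-11239204, plus strand) had a promoter peak (chrIII:11236794-11237189) of signal 74.6, with 38.4 in replicate 1 and 33.5 in replicate 2. It lay 151 bp upstream of aakb-2 and 124 bp upstream of the divergent gene Y47D3A.14, so it cannot be given to either gene alone. The stronger aakb-2 peak, of signal 130.0 (66.7 and 62.3 in replicates 1 and 2), lay beyond the end of the gene and 1457 bp upstream of rsks-1, the S6 kinase gene of the TOR pathway.

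aakb-1 (WBGene00010115, chrX:13755769-13759391, plus strand) had 4 peaks. The nearest to its start (chrX:13754496-13754891) scored 90.9, against 43.8 in replicate 1's list and 45.5 in replicate 2's, and lay 1075 bp upstream, just outside the promoter window. No peak of the pooled list or of either replicate lay inside that window. The E-box peak of aakb-1 had a signal of 71.2 (34.3 and 35.2) and lay inside nhr-71, a nuclear hormone receptor gene. The remaining 2 peaks, of signals 70.8 and 47.8, lay inside nkb-3, a sodium pump beta subunit gene.

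The gamma subunit genes had 15 of the 29 peaks and 7 of the 10 E-box peaks. aakg-1 (WBGene00013732, chrIII:12538664-12575401, minus strand) is the longest of the subunit genes at 36738 bp, has 7 annotated transcripts with different starts, and had 6 IDR peaks. Its upstream peak (chrIII:12583482-12583897) had a signal of 976 (replicate 1 gave 536 and replicate 2 gave 443), and its summit was 8285 bp upstream of the gene start. It ranked 4 in the IDR list, 4 in replicate 1's list and 6 in replicate 2's. It lay in a gap of 20592 bp between aakg-1 and the next protein-coding gene upstream, gldi-8, and the nearest annotated non-coding gene, Y111B2A.34, was 24859 bp away.

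The other 5 aakg-1 peaks were in introns. The strongest (chrIII:12568333-12568581) scored 287, against 144 in replicate 1's list and 145 in replicate 2's, and lay in intron 5 of 13. A peak in intron 8 (chrIII:12556248-12556350) had a signal of 142 (replicate 1 gave 95.0 and replicate 2 gave 49.8). The weakest, of signal 51.4 (30.7 and 27.4), lay in intron 5. These 3 carried the E-box, and peaks of signal 139.6 (53.8 and 86.5) and 108 (56.2 and 51.9) in intron 8 did not. The summit of the 139.6 peak was 22 bp from a non-coding RNA gene, Y111B2A.32. None of the 5 lay within 1000 bp upstream of an annotated aakg-1 transcript start: the nearest was 1703 bp upstream of one. The promoter window of the gene start held 1 pooled peak with a signal of 19.8.

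aakg-3 (WBGene00021527, chrX:2976448-2981027, plus strand) had its strongest peak (chrX:2971501-2971796) 4787 bp upstream, with a signal of 231 (replicate 1 gave 105 and replicate 2 gave 129.7). The peak lay in the gap between aakg-3 and gbb-1, a GABA-B receptor subunit gene. That gap also holds the microRNA gene mir-34 (listed as cel-mir-34, chrX:2969752-2969848, minus strand), whose start is closer: the summit was 1813 bp upstream of it. aakg-3 and mir-34 point away from each other, and the peak lies between them. A weaker aakg-3 peak of signal 46.2 had 44.0 in replicate 1 and 11.9 in replicate 2, the widest ratio between replicates at any of the 29 peaks.

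aakg-2 (WBGene00020633, chrX:16866046-16869031, minus strand) had 2 peaks, both between it and the divergent gene T20F7.1. The E-box peak (chrX:16871273-16871668) scored 92.0, against 44.4 in replicate 1's list and 50.2 in replicate 2's, and was 2440 bp from aakg-2 and 1441 bp from T20F7.1. The other, of signal 98.3 (59.9 and 40.0), lay in the promoter window of T20F7.1. In the aakg-2 promoter window the pooled list held 2 peaks, the higher with a signal of 33.5 and the one nearer the start with 17.3.

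aakg-4 and aakg-5 were the gamma genes with a promoter peak. aakg-4 (WBGene00020135, chrX:2314894-2319338, minus strand) had its promoter peak (chrX:2319625-2320020) 485 bp upstream, with a signal of 95.6 (replicate 1 gave 61.9 and replicate 2 gave 36.8). A stronger peak inside the gene, of signal 114 (50.3 and 64.0), lay 43 bp upstream of the start of a shorter aakg-4 transcript. That summit also lay inside a non-coding RNA gene, T01B6.8. The E-box peak of aakg-4, of signal 63.0 (34.2 and 24.6), was 2572 bp upstream. No other protein-coding start was nearer to any of these 3 summits than that of aakg-4.

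aakg-5 (WBGene00011276, chrII:9971035-9975125, minus strand) had the promoter peak closest to a start, 65 bp upstream (chrII:9974992-9975387). Its signal was 127, the highest of the 3 promoter peaks (replicate 1 gave 79.3 and replicate 2 gave 44.4). The second aakg-5 peak, of signal 53.1, was 9995 bp upstream and nearest to sdz-38.

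Promoter windows were bound in 3 of the 9 genes (aakb-2, aakg-4 and aakg-5), where 10.9% of all protein-coding genes, 15.2% of those on X and 10.3% of those on autosomes were bound. With every annotated transcript start counted, aak-2 joined them. In the pooled list, which reaches lower signals, the promoter windows of 8 of the 9 genes held a peak, all but that of aakb-1, where 38.9% of all protein-coding genes did. None of the 10 E-box peaks lay in the promoter window of any protein-coding gene, where 38.3% of all E-box IDR peaks and 43.0% of all IDR peaks did. Of the 29 peaks, 8 lay in some protein-coding promoter window. Inside the gene body, 3 of the 9 genes (aak-2, aakg-1 and aakg-4) held an IDR summit, where 4.99% of all protein-coding genes, 8.31% of those on X and 4.47% of those on autosomes did. All 9 summits in these bodies were in introns and none in a coding exon. They came from few stretches of DNA: 5 were in aakg-1, and 3 were in aak-2, where the main and minor summits share an interval. The share in introns over all IDR summits in gene bodies was not counted. Of the other 20 peaks, 6 were inside other protein-coding genes and 14 were between genes.

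The nearest protein-coding start was that of the subunit gene for 16 of the 29 peaks. This held for 3 of 8 peaks of the catalytic genes, 1 of 6 of the beta genes and 12 of 15 of the gamma genes. The 12 include all 6 peaks of aakg-1, the longest of the subunit genes. A difference between subunit classes was not tested. The matching share over all protein-coding genes was not counted. aak-1, aakb-2 and aakg-2 had no peak nearest to their own start. Of the 10 E-box peaks, 7 were nearest to a subunit gene, and 3 to nhr-71, cas-1 or T20F7.1.

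**Figure D2:**
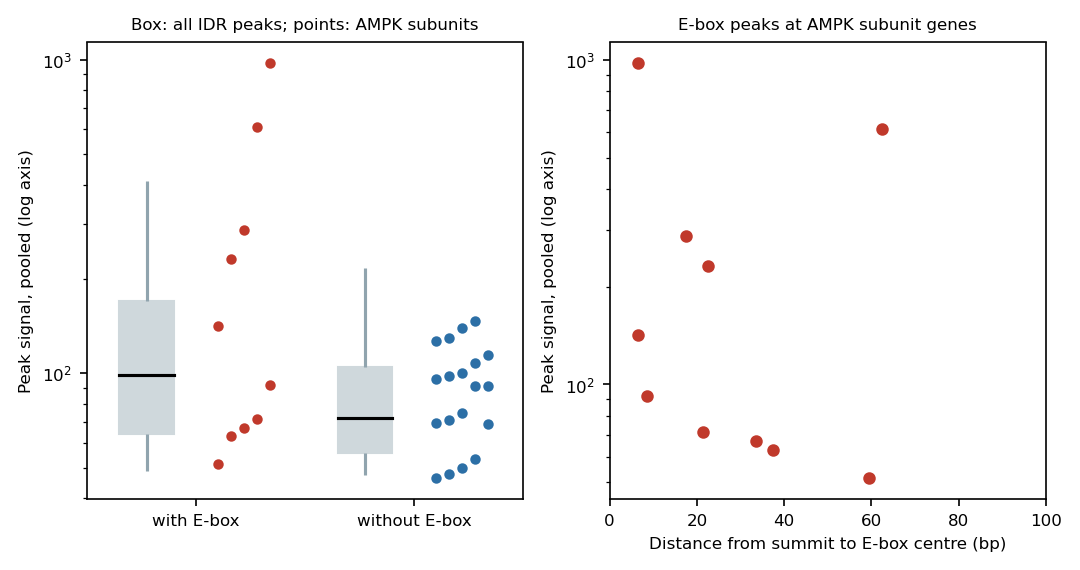
Left, signal of the IDR peaks (log axis) with and without CACGTG within 100 bp: boxes and lines give the 25th to 75th and 5th to 95th percentiles over all IDR peaks with the median as a bar, and points are the peaks at AMPK subunit genes. Right, signal of the 10 E-box peaks against the distance in bp from summit to E-box centre; the 976 peak is at 6.5 bp and the 613 peak at 62.5 bp.

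Peaks with and without the E-box overlapped in signal, but the strongest were all with it. The 10 E-box peaks ran from 51.4 to 976 with a median of 117, and the other 19 ran from 46.2 to 147 with a median of 91.0. Over all IDR peaks the medians were 99.0 with and 72.1 without CACGTG. With the search narrowed to 50 bp from the summit, 8 of the 10 peaks kept the E-box. Of the 2 strongest, the aakg-1 peak had it almost at the summit and the aak-2 peak had it farther to the side. The distances over all E-box IDR peaks were not counted.

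**Figure D3:**
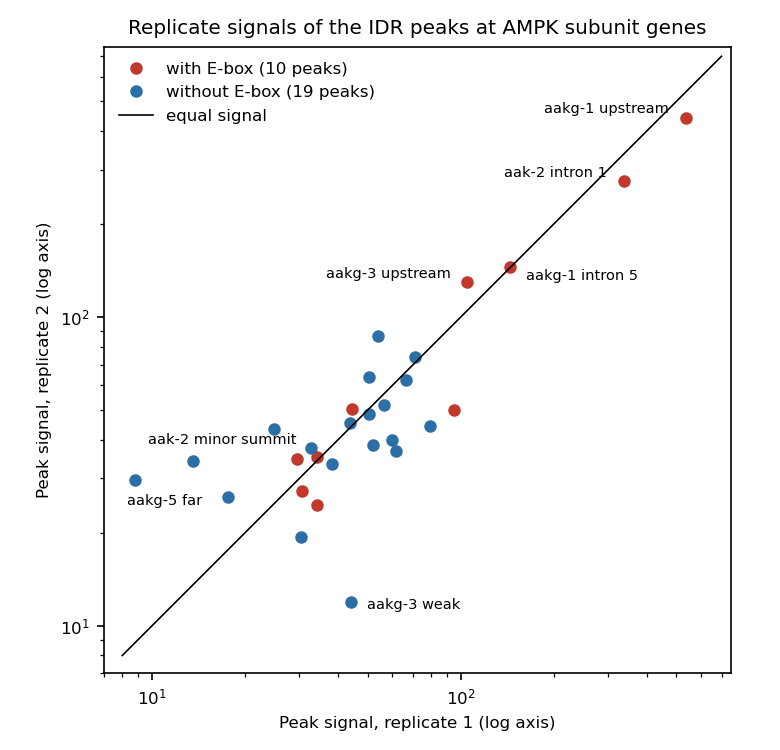
Signal in replicate 1 against replicate 2 (log axes) for the 29 IDR peaks at AMPK subunit genes, red with and blue without CACGTG; the line marks equal signal. The replicate peak with the nearest summit is shown; the 4 strongest peaks lie near the line, and the peaks farthest from it are weak, of which aakg-5 far and the aak-2 minor summit depend on that match.

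All 29 peaks overlapped a peak in each replicate's own list, as did 4279 of all 4293 IDR peaks. The IDR list is derived from these lists, so this overlap was nearly fixed in advance. Replicate 1 was higher at 15 and replicate 2 at 14, and the log2 ratio (replicate 1 over replicate 2) was 0.05 at the median peak, with an SD of 0.70 over the 29, which are not independent. Over the 4279 IDR peaks with a match in each list, the median ratio was 0.10 and its SD 0.60. At the 4 strongest peaks the ratio stayed between -0.30 and 0.29. It exceeded 2-fold at 3 of the 29 peaks, where 9.65% of all IDR peaks did, so the count was near the background. These 3, all of pooled signal 69.3 or less, were the weaker aakg-3 peak, the distant aakg-5 peak and the minor summit in aak-2. The last 2 depended on which replicate peak was matched, since 9 of the 29 peaks overlapped more than 1 peak in a replicate's list. At the distant aakg-5 peak the replicate 1 peak with the nearest summit had 8.82, another that overlapped it had 36.7, and replicate 2 had 29.7. With the highest overlapping peak taken in each list, a choice added after the values were seen, the aakg-3 peak alone passed 2-fold, and 7.90% of all IDR peaks did. At the minor aak-2 summit that choice takes the main peak's own values. Summits in the replicates were a median of 6 bp, and at most 97 bp, from the IDR summit.

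The number of peaks was set beside that of all protein-coding genes. At least 2 IDR peaks lay in reach of every subunit gene, and 25.0% of all protein-coding genes had as many. aak-2 and aakg-1 had 6 each, a count reached by 1.06% of genes. The aak-2 count includes the main and minor summits of the same interval. Its peaks outside the gene were nearest to the starts of other genes. aakg-1 is long, and 4.39% of the 114 genes within 1.5 times its length had as many peaks; for aak-2 it was 1.70% of 2530 genes of like length. aakg-1 had 4 E-box peaks, and no other of those 114 genes had as many, since its share of 0.877% is the gene itself. The subunit genes had 1.16 IDR peaks per 10 kb examined, against 0.424 over all protein-coding genes and 0.589 over those on X, where 5 of the 9 lie. On X, 67.2% of genes had a peak in reach, and on autosomes 49.6%.

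**Figure D4:**
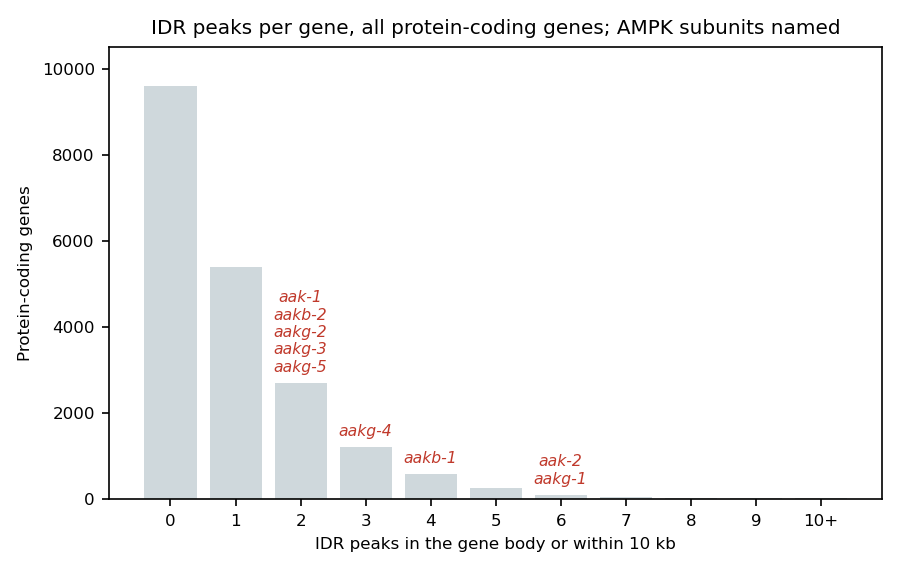
Number of protein-coding genes (vertical axis) by their number of IDR peaks in the gene body or within 10 kb (horizontal axis), with the AMPK subunit genes named above the bar they belong to. Of the 9, 5 sit at 2 peaks, and aak-2 and aakg-1 sit at 6.

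By its highest peak in reach, aakg-1 ranked 5 among all protein-coding genes and aak-2 ranked 66. By the highest peak inside the gene body, aak-2 ranked 6. Ranked just above it were Y43F8B.2 (738) and F09A5.3 (652), and just below it haf-9 (577), a half-size ABC transporter gene, and C43E11.12 (556). Each of these 4 also had at least 1 E-box peak inside the gene. In Y43F8B.2 and F09A5.3, with 5 and 3 IDR peaks inside, it need not be the highest. The share over all genes with a body peak this strong was not counted. Likeness here is the value of that highest signal alone, over a lone group.

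The 10 kb limit decided a few peaks. Just inside it were the aakg-5 peak at 9995 bp and the aak-2 peaks at 9956 and 9905 bp from the gene body, the last being the weakest of the aak-2 peaks; the other 2 had signals of 53.1 and 66.9. Just outside were a peak 10700 bp from aak-2 (signal 83.9) and one 10871 bp from aakb-1 (signal 61.4), neither with an E-box. At the lower end of the IDR list, whose lowest signal was 45.6, the aakg-3 peak of 46.2 was inside, and pooled peaks of 44.1 in aakg-5 and 43.6 in aakg-4 were outside.

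Of 23 pathway genes, picked by name as upstream genes, targets and effectors, or AMPK-related kinases, 6 (26.1%) were bound at their promoters. The share over all protein-coding genes was 10.9%. By group, 1 of 7 upstream genes (14.3%), 4 of 12 targets and effectors (33.3%) and 1 of 4 AMPK-related kinases (25.0%) were promoter-bound. Promoter windows without an IDR peak included those of ckk-1, crtc-1, unc-51, pod-2, sbp-1, mdt-15, let-363, raga-1 and drp-1. An IDR peak lay in reach of 16 of the 23 (69.6%), against 52.0% of all protein-coding genes. Among 7 upstream genes, flcn-1, the folliculin homolog, was the promoter-bound one, with a signal of 62.4 (replicate 1 gave 32.5 and replicate 2 gave 28.6), 206 bp upstream. The LKB1 homolog par-4, its partner strd-1 and mop-25.2, one of the MO25 homologs, had no IDR peak in reach. The other MO25 homologs did: mop-25.1 had 3, the highest of signal 169.6, and mop-25.3 had 1, of signal 55.9. Among 12 targets and effectors, the promoter-bound genes were daf-16, crh-1, atgl-1 and daf-15.

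daf-16, the FOXO factor of the insulin pathway, had a promoter signal of 142 (replicate 1 gave 79.0 and replicate 2 gave 68.1). crh-1, the CREB homolog that acts with the AMPK target CRTC-1, had 89.7 (46.1 and 49.5) and was the only one of the 6 with an E-box at its promoter peak. Over all IDR peaks in protein-coding promoter windows, 303 of 1844 had CACGTG, so 1 of 6 was near the background. atgl-1, the adipose triglyceride lipase gene, had 2 promoter peaks, the higher with 76.2 (41.1 and 33.0), and daf-15, the raptor homolog, had 58.0 (34.9 and 24.4). Of 4 AMPK-related kinases, kin-29, the salt-inducible kinase homolog, had the highest promoter signal of the 23 genes at 224 (107 and 121), and par-1, sad-1 and unc-82 had no promoter peak.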

How the data were processed

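Binding was measured by ChIP-seq in 2 biological replicates of 1 group. The deposited signal value of each peak (column 7) was used from 4 peak lists on build ce11: 1 for each replicate, 1 called on the alignments of both together and the IDR list derived from these, per the deposited file descriptions. The caller, aligner and IDR threshold were not stated in the sources used here. IDR signals are those of the pooled list, and pooled and single-replicate signals differ in scale. The ce10 lists were not used.

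Gene positions came from Ensembl release 115 and sequence from RefSeq, both of the ce11 assembly (WBcel235), with coordinates 1-based. A peak belonged to a gene if its summit lay in the body or within 10 kb. Its replicate value is that of the overlapping replicate peak (at least 1 bp) with the nearest summit. The E-box CACGTG, the hexamer CACGCG and the repeat GAGAGA were searched on both strands within 100 bp of the summit. Percentages over all protein-coding genes or all IDR peaks were computed the same way. Genes of like length are within 1.5 times in either direction. The named genes are the 9 subunit genes, genes nearest to or with a promoter window over their IDR peaks, 23 pathway genes, and the 2 genes ranked to either side of aak-2. mir-34, gbb-1 and gldi-8 were named after the values were seen. Members and lists were chosen with earlier results of these data known, so nothing was tested for significance. The counting steps were tested on simulated data. Python 3.11.15, numpy 2.4.6, pandas 2.3.3 and matplotlib 3.10.9 were used.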

Additional observations from a re-analysis of the deposited data

How the results depend on the processing

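Of 41 recounts under other settings, 33 stayed within 1.5 times the reported count. The number of IDR peaks, 29 as reported, was 9 with the gene body only, 13 with a flank of 2 kb, 17 with IDR peaks below the median signal dropped and 16 with each peak given to the nearest protein-coding start. The number of genes with a peak, 9 as reported, was 3 with the gene body only. It also fell, within 1.5 times, to 6 with a flank of 2 kb, 8 with a flank of 5 kb and 6 with each peak given to the nearest protein-coding start. The number of E-box peaks, 10 as reported, was 4 with the gene body only, 4 with a flank of 2 kb and 6 with IDR peaks below the median signal dropped. These settings count fewer positions or fewer peaks by construction. With the strongest 4293 peaks of 1 replicate in place of the IDR list, leaving out each replicate in turn, the counts were 28 to 31 peaks, 9 genes in both cases, 3 promoter-bound genes in both cases and 10 E-box peaks in both cases. The number of peaks beyond 2-fold between replicates was 1 in place of 3 with the highest overlapping replicate peak, chosen after seeing the data. No paired analysis was possible because the study has a lone group. The lists carry no read counts, so no interval for a single peak's signal could be given.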

Other observations

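Weaker peaks surrounded the IDR peaks. The pooled list held 114 peaks in reach of the 9 genes, and 85 of them did not pass the IDR comparison, with signals from 10.7 to 44.1 and a median of 16.2. Replicate 1's list held 117 peaks there and replicate 2's held 116. Of the 85, 8 had the E-box near the summit, and 5 of these 8 were at aakg-1, which had 21 of the 85 peaks. The share with an E-box over all pooled peaks that did not pass was not counted, so these counts have no background beside them. The strongest of the E-box peaks at aakg-1 that did not pass were 2 intronic ones of signal 25.4, at 23803 and 9272 bp from the gene start.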
